A study of Homo sapiens with 2 samples.

Results

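The miR-23/27/24 family comes from a pair of paralogous clusters of microRNAs (miRNAs), and 10 mature miRNAs of these clusters were followed here, of 2588 mature miRNA names in the deposited tables. They were chosen by name and cover both arms of most hairpins. The tables list them as hsa-miR-23a-3p, hsa-miR-23a-5p, hsa-miR-23b-3p, hsa-miR-27a-3p, hsa-miR-27a-5p, hsa-miR-27b-3p, hsa-miR-27b-5p, hsa-miR-24-3p, hsa-miR-24-1-5p and hsa-miR-24-2-5p, and the prefix for human is left out below. The libraries came from an RNA pulldown in MDA231, a triple-negative, basal-like and mesenchymal-like breast cancer cell line. The study asks which miRNAs associate with the long non-coding RNA MACC1-AS1. For the bait library, parental MDA231 lysate was passed over amylose resin carrying MACC1-AS1 made by T7 polymerase and tagged with MS2 hairpins, held through a maltose-binding protein fused to the MS2 coat protein. For the no-bait library, lysate of the same parental cells met resin with no RNA substrate. With 1 library per group, the ratios below cannot be set against the spread of replicates, and the counts give no p-value. No control with another tagged RNA is among these libraries, so what MACC1-AS1 retains and what any tagged RNA retains cannot be told apart.

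Each cluster is transcribed as a single primary transcript that holds a miR-23, a miR-27 and a miR-24 hairpin. Drosha and Dicer cut each hairpin into a short duplex, and one strand, the guide, is loaded into an Argonaute protein while the other, the passenger, is mostly degraded. In this family the guides are the 3p arms. miR-23, miR-27 and miR-24 are known from angiogenesis, lipid and muscle biology and the cell cycle, and the clusters have been studied in breast cancer. Bases 2 to 8 of a miRNA, the seed, carry most of its target recognition.

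The mature sequences below, from RefSeq on GRCh38.p14, show which members share a seed and how little separates the 3p paralogs. All 10 members matched an entry. Seeds are in capitals, and each line runs 5′ to 3′.
miR-23a-3p: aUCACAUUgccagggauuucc
miR-23b-3p: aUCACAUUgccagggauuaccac
miR-27a-3p: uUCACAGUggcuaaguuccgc
miR-27b-3p: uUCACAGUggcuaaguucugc
miR-24-3p: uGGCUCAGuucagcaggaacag
miR-23a-5p: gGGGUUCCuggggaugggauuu
miR-27a-5p: aGGGCUUAgcugcuugugagca
miR-27b-5p: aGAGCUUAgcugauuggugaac
miR-24-1-5p: uGCCUACUgagcugauaucagu
miR-24-2-5p: uGCCUACUgagcugaaacacag
Counting positions from 1 at the 5′ end, with the 23a-cluster base first, miR-23a-3p and miR-23b-3p differ over their shared 21 bases only by U19A, and miR-23b-3p is 2 bases longer. miR-27a-3p and miR-27b-3p differ only by C19U. miR-24-3p is identical from both clusters, so its counts cannot be assigned to either. The 5p arms have diverged further. miR-24-2-5p and miR-24-1-5p differ at 6 of 22 positions and share the seed. miR-27a-5p and miR-27b-5p differ at 8 of 22 positions, and G3A gives them different seeds.

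The hairpins of miR-23a, miR-27a and miR-27b are shown. Among hairpins with both arms in the member list, their arms behaved most differently between the libraries. Annotated mature arms are in capitals, the 5p arm first.
MIR23A: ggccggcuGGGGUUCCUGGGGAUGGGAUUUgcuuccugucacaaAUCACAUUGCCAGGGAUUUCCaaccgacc
MIR27A: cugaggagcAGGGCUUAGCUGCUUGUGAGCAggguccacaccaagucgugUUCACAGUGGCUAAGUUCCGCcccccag
MIR27B: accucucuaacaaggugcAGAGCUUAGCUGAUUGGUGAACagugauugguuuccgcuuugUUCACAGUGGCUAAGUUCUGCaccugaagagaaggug
The 23a cluster lies at chr19:13836287-13836659 on the minus strand, with miR-23a, miR-27a and miR-24-2 within 373 bases. The 23b cluster lies at chr9:95085208-95086088 on the plus strand, with miR-23b, miR-27b and miR-24-1 within 881 bases (both GRCh38.p14). In GENCODE version 29, also on GRCh38, all 3 hairpins of the 23a cluster lie in an exon of the non-coding gene AC020916.1. The miR-23b and miR-27b hairpins lie in introns of the protein-coding gene C9orf3, on its strand, and miR-24-1 is exonic in 1 of 7 C9orf3 transcripts that span it and intronic in the others. miR-24-1 also overlaps MIR3074 on the opposite strand. Sources used here do not give the build the authors mapped to.

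Library totals were 1047269 counts with bait and 269716 without, 3.88-fold apart. Counts were scaled to miRNA reads per 1e6 counted (RPM), and the ratio is bait RPM over no-bait RPM. Its 95% interval is the exact conditional binomial one and, like every interval here, covers counting error only. A ratio was assessed at 30 counts or more over both libraries. It was called higher at 2 or above, or lower at 0.5 or below, where the interval excluded 1. Of 231 assessed miRNAs 39.4% were called higher and 26.8% lower, so a call by itself is common, and the median ratio was 1.46. DESeq2 size factors raised every ratio 1.34-fold, a shift of 0.42 on the log2 scale, and gave 114 higher and 44 lower calls against 91 and 62. TMM shifted the log2 ratios by 0.15, and totals without the 5 most abundant miRNAs by -0.13. The 6 miRNAs fixed as typical of basal or mesenchymal-like breast lines held 53.2% of counts with bait and 60.05% without. Most of this was miR-100-5p, at 296361 RPM with bait and 452802 RPM without. The set did not move together. miR-125b-5p was at 53091 RPM with bait and 4672 RPM without, and miR-222-3p at 8028 and 40198 RPM. The 6 epithelial miRNAs held 0.0181% and 0.0111%, with miR-141-3p and miR-205-5p at 0 counts. The 7 blood cell miRNAs held 0.0432% and 0.0864%, with miR-144-3p, miR-223-3p and miR-150-5p at 0 counts in both libraries. miR-486-5p had the most counts of these, 386 with bait and 214 without. The part of these marker differences in the family's ratios was not tested.

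The family took a larger share of the bait library, and most of the gain lay in the 3p guides. All 10 members together held 3.15% of counts with bait (exact Clopper-Pearson 95% interval 3.12% to 3.18%) and 1.16% without (1.12% to 1.21%), with a ratio of 2.71 (2.61 to 2.81). The 5 guides summed to 30962 RPM with bait and 9517 RPM in the no-bait library, a ratio of 3.25 (3.12 to 3.39). The 5 passengers went the other way in sum, with 521 RPM with bait and 2121 RPM without, 4.07-fold lower (3.61 to 4.58). miR-27a-5p supplied 459 of their 572 counts without bait. miR-24-2-5p, which was higher with bait, supplied 250 of their 546 counts there. Of the 10 members, 8 reached 30 counts. Of these, 4 were called higher (miR-23a-3p, miR-23b-3p, miR-27a-3p and miR-24-2-5p) and 2 lower (miR-27a-5p and miR-27b-5p). The guides miR-27b-3p and miR-24-3p met neither bound. With so many calls in the whole table, 4 of 8 is close to the general share, and the order among the members carries more than the counts of calls.

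**Figure D1:**
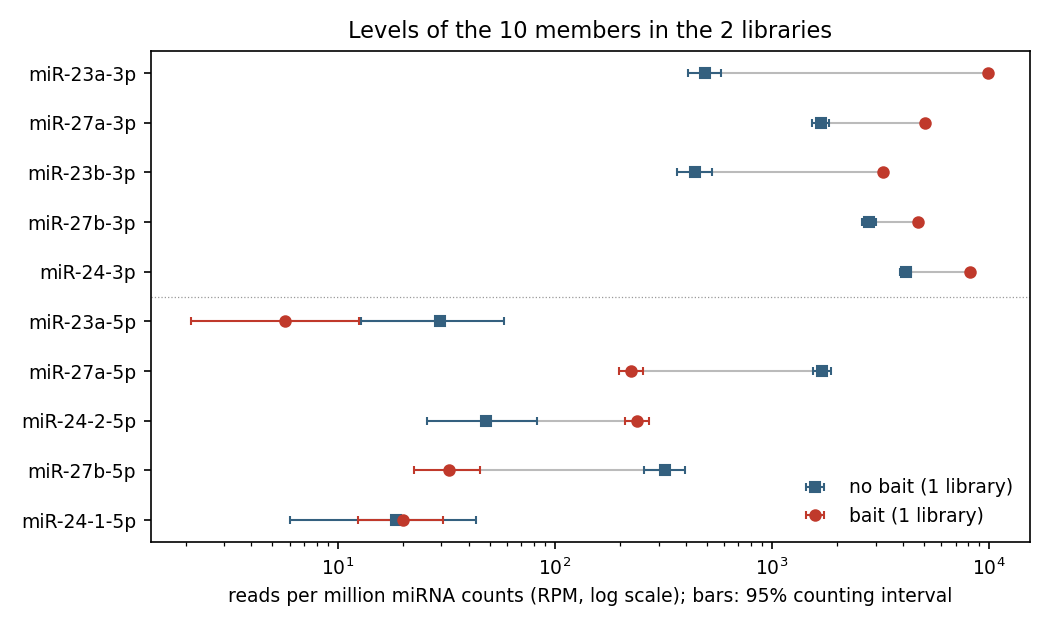
Levels of the 10 members in RPM (log axis) in the no-bait library (blue squares) and the bait library (red circles), with 95% counting intervals; the dotted line separates 3p guides from 5p passengers. miR-23a-3p moved from 489 to 9864 RPM, while miR-27a-5p moved the other way, from 1702 to 224 RPM.

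The order of the guides changed between the libraries. Without bait, miR-24-3p was the most abundant member at 4115 RPM, followed by miR-27b-3p at 2796 RPM. The passenger miR-27a-5p and its guide miR-27a-3p came next at 1702 and 1676 RPM, with overlapping intervals. miR-23a-3p and miR-23b-3p followed at 489 and 441 RPM, and they could not be separated at this depth. With bait, miR-23a-3p led at 9864 RPM and stood 13th among all names, against 66th without bait. miR-24-3p followed at 8135 RPM, miR-27a-3p at 5041 RPM, miR-27b-3p at 4686 RPM and miR-23b-3p at 3236 RPM. The intervals of these 5 guides did not overlap with bait. Every passenger lay below every guide with bait, led by miR-24-2-5p and miR-27a-5p at 239 and 224 RPM with overlapping intervals. Without bait, miR-27a-5p stood above 3 of the 5 guides by level, although its interval overlapped that of miR-27a-3p.

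hsa-miR-23a-3p, the guide of the miR-23a hairpin, was counted 10330 times with bait and 132 times without, which gives a ratio of 20.2 (17.0 to 24.1). Itself included, 7 of the 231 assessed miRNAs had a ratio as high. hsa-miR-23b-3p, its near-identical paralog, had 3389 and 119 counts, a ratio of 7.33 (6.11 to 8.88). The gain of the miR-23 seed therefore appears under both names. Reads that match miR-23a-3p and miR-23b-3p equally well may have been divided in a way the sources used here do not give. Summed, the pair held 13100 RPM with bait and 931 RPM in the no-bait library, a ratio of 14.1 (12.4 to 16.0). This sum does not depend on the split only if each shared read was counted once. miR-199a-3p and miR-199b-3p, which are identical in sequence, were each listed with 176 counts with bait and 92 without. In all 17 pairs of names with identical sequence and any counts, both names had the same counts. Most of the 17 combine names of a single sequence, such as miR-518e-5p and miR-519a-5p, each with 14 counts with bait and 0 without. The remaining pair, miR-365a-3p and miR-365b-3p, had 42 and 0 under each name. The 17 are thus not separate observations. Reads that fit 2 names may therefore be in the sum more than once. miR-23c, the other listed miRNA with this seed, had 5 counts with bait and 1 without, too few to assess. Among non-members with at least 100 counts, the ratios nearest to that of miR-23a-3p were those of miR-374a-5p (19.4), miR-452-5p (20.9) and miR-218-5p (15.0). Nearness here is the difference in log2 ratio over these 2 libraries, and the first and second of these rest on 3 counts each without bait.

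The miR-27 guides changed less. hsa-miR-27a-3p was counted 5279 times with bait and 452 times without, at a ratio of 3.01 (2.73 to 3.32). Its bait level lay above its no-bait level beyond counting error. miR-27b-3p had 4908 and 754 counts, a ratio of 1.68 (1.55 to 1.81), under the 2-fold bound. Summed, the miR-27 guides had a ratio of 2.18 (2.05 to 2.31). As for miR-23, reads that fit both names may be in this sum more than once. The ratios nearest to that of miR-27a-3p belonged to miR-93-5p (3.00), miR-16-2-3p (2.94) and miR-29b-3p (3.13).

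hsa-miR-24-3p, the guide made by both clusters, reached 8520 counts with bait against 1110 in the other library. Its ratio of 1.98 (1.86 to 2.11) sat at the bound, and it was called higher with TMM (2.20) and with DESeq2 size factors (2.65). DESeq2 size factors also brought miR-27b-3p to a call, at 2.25. The nearest ratios were those of miR-501-3p (2.03), miR-152-3p (1.89) and let-7g-5p (2.14).

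**Figure D2:**
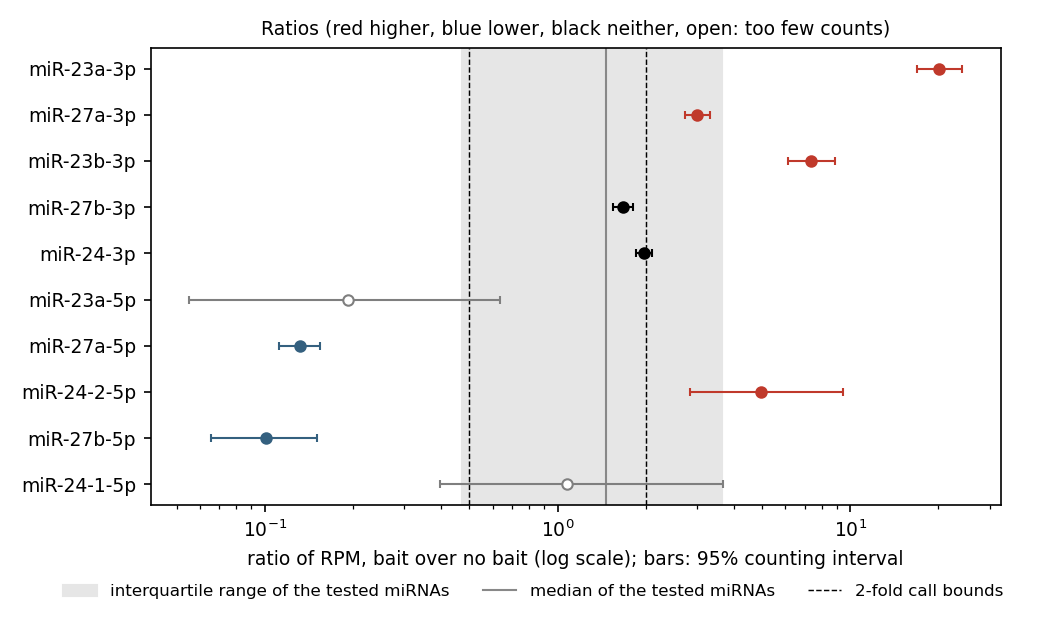
Ratio of bait over no-bait RPM for each member (log axis) with 95% counting intervals; the grey band and line show the interquartile range and the median of the 231 assessed miRNAs, and dashed lines the 2-fold bounds. miR-23a-3p at 20.2, miR-23b-3p at 7.33 and miR-24-2-5p at 4.95 lie above the band, and miR-27a-5p at 0.132 and miR-27b-5p at 0.101 below it.

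The guides of a single primary transcript did not keep their proportions. In the 23a cluster, miR-23a-3p had 1.96 counts per count of miR-27a-3p with bait and 0.292 without, a ratio of ratios of 6.70 (5.49 to 8.22). In the 23b cluster, miR-23b-3p had 0.691 counts per count of miR-27b-3p with bait and 0.158 without, a ratio of ratios of 4.37 (3.58 to 5.38). Thus miR-23 gained on miR-27 in each cluster, in a comparison that does not depend on scaling between libraries. Against the shared miR-24-3p, miR-23a-3p gained 10.2-fold (8.48 to 12.3) and miR-23b-3p 3.71-fold (3.05 to 4.54). miR-27a-3p gained 1.52-fold on it (1.36 to 1.71), and the value for miR-27b-3p was 0.848 (0.767 to 0.938). Such gaps are common among clustered miRNAs in these libraries. Of 49 pairs of assessed miRNAs with different seeds whose hairpins lie within 10 kb on 1 strand, 51.0% were at least 2-fold apart with an interval that excluded 1, and the median gap was 3.67-fold. The pairs named here are among those 49, and 13 of the 49 were at least as far apart as miR-23a-3p and miR-27a-3p.

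The 23a-cluster copy gained on its 23b-cluster paralog in each pair with a seed in common and both names in the family. miR-23a-3p made up 75.3% of the counts of the miR-23 guides with bait (74.6% to 76.0%) and 52.6% without (46.2% to 58.9%). The ratio of ratios was 2.75 (2.12 to 3.56). miR-27a-3p made up 51.8% of the miR-27 guides with bait (50.8% to 52.8%) and 37.5% without (34.7% to 40.3%), a ratio of ratios of 1.79 (1.58 to 2.03). miR-24-2-5p had 250 counts with bait and 13 without, and miR-24-1-5p 21 and 5. Their ratio of ratios was 4.54 with a wide interval of 1.15 to 15.3. The intervals of these 3 pairs lie above 1, and only the first and the third pass 2-fold. How reads that fit both names of a pair were counted is not given, and its part in these shares was not tested.

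The shares of the miR-27 passengers could not be separated. miR-27a-5p made up 87.4% of them with bait (82.8% to 91.1%) and 84.1% without (80.7% to 87.0%), a ratio of ratios of 1.31 (0.842 to 2.07). miR-23b-5p, a listed name outside the chosen members, had 6 counts with bait and 20 without, against 6 and 8 for miR-23a-5p, and that pair could not be separated (2.44, 0.490 to 12.5). Paralog gaps as large as those of the guides also occurred elsewhere in these libraries. Across 71 pairs of assessed letter paralogs of 1 arm, which share members between pairs, 39.4% were at least 2-fold apart with an interval that excluded 1. The median gap was 1.87-fold, and 25 pairs, with no condition on the interval, were at least as far apart as the miR-23 guides. For the miR-27 guides the number was 38, and for the miR-24 passengers 13. Pairs of let-7 names are a large part of the 71. They make up most of the pairs counted as 2-fold apart and most of the 25, so these shares rest largely on let-7. The miR-23 and miR-27 guide pairs are themselves among the 71. The 71 pairs hold no numbered copies such as miR-24-1 and miR-24-2. Summed without miR-24-3p, the 5 members of the 23a cluster had a ratio of 3.90 (3.66 to 4.15) and the 4 members of the 23b cluster 2.23 (2.09 to 2.39).

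**Figure D3:**
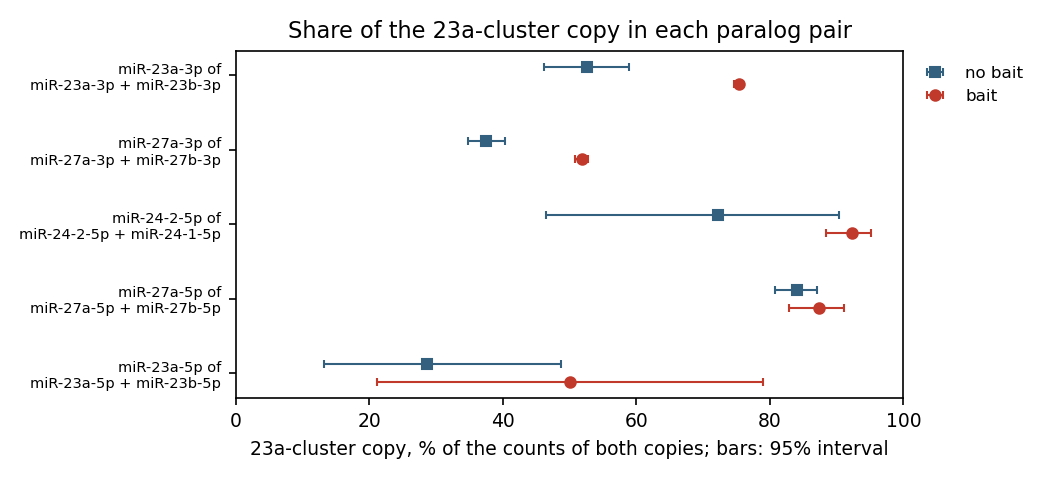
Share of the 23a-cluster copy among the counts of each paralog pair, in percent, without bait (blue squares) and with bait (red circles), with 95% intervals. The share moved from 52.6% to 75.3% for the miR-23 guides and from 37.5% to 51.8% for the miR-27 guides, while the intervals of the miR-27 passengers overlap.

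Among the members, the passengers of miR-27 and miR-23a fell behind their guides. hsa-miR-27a-5p had 235 counts with bait against 459 in the no-bait library, although the bait library was deeper, a level 7.58-fold lower (6.47 to 8.91). Without bait it was as frequent as its guide, at 50.4% of the hairpin's counts (47.1% to 53.7%). With bait it made up 4.26% (3.74% to 4.83%). The arms were 22.8-fold apart in their ratios (18.9 to 27.5), and they were called in opposite directions, as in 8.82% of 34 hairpins with both arms assessed.

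hsa-miR-27b-5p had 34 counts with bait against 87 in the no-bait library, 9.94-fold lower (6.61 to 15.2). Its share of the hairpin fell from 10.3% (8.37% to 12.6%) without bait to 0.688% (0.477% to 0.960%) with it, a gap of 16.6-fold between the arms (11.0 to 25.7). miR-23a-5p had only 6 and 8 counts, below the minimum, a ratio of 0.193 (0.0552 to 0.635). Set against the large gain of miR-23a-3p, its share of the hairpin was 0.0580% with bait (0.0213% to 0.126%) and 5.71% without (2.50% to 10.9%). The arms of miR-23a were thus 104-fold apart, with a wide interval of 31.1 to 369. miR-23b-5p, outside the members and also below the minimum, had a ratio of 0.0773 (0.0254 to 0.199), against 7.33 for miR-23b-3p. With both paralogs summed, the miR-23 arms were 127-fold apart.

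The miR-24 passengers did not share this pattern. hsa-miR-24-2-5p was at 239 RPM with bait and at 48.2 RPM in the other library, a ratio of 4.95 (2.84 to 9.43), and its gain was larger than that of its guide. Set against miR-24-3p it gained 2.51-fold (1.43 to 4.79), although miR-24-3p also holds the output of the miR-24-1 hairpin. hsa-miR-24-1-5p had 21 and 5 counts, below the minimum, with a ratio of 1.08 (0.397 to 3.67). Its value against miR-24-3p was 0.547 (0.200 to 1.86), so no difference was detectable at this depth. Both miR-24 passengers share a seed, and summed they had a ratio of 3.88 (2.41 to 6.64). The opposite-strand miR-3074-5p had 7 counts with bait and 0 without, and miR-3074-3p had 0 in both.

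Large gaps between arms were common. Of 33 hairpins with both arms assessed and at least 1 count in each library, 63.6% had arms at least 2-fold apart with an interval that excluded 1, and the median gap was 3.93-fold. The 5p arm had the smaller ratio in 15 of them. In many hairpins the 5p arm is the guide, so the less abundant arm by RPM summed over both libraries, the minor arm, was also set against the major one. The ratio of the minor arm was the lower of the pair in 20 of 33 hairpins, with a median of 0.813 times the ratio of the major arm. miR-30e, miR-181a and miR-30a, whose major arm is 5p, and miR-25, whose major arm is 3p, went the same way as miR-27, with the major arm ahead by 9.87-fold, 10.2-fold, 4.98-fold and 57.2-fold. miR-106b and miR-10a went the other way, with the minor arm ahead by 107-fold (29.2 to 891) and 17.2-fold (4.51 to 146). Both minor arms had only 2 counts without bait. The value for miR-25 (18.6 to 286) rests on 3 counts of its minor arm with bait. All of these hairpins were named after their values were seen. A shortfall of the minor arm as large as that of miR-27b was seen in 4 of the 33, namely miR-25, miR-423, miR-27a and miR-27b. Among all assessed miRNAs, 106 5p names had a median ratio of 2.36 and 91 3p names 1.59.

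**Figure D4:**
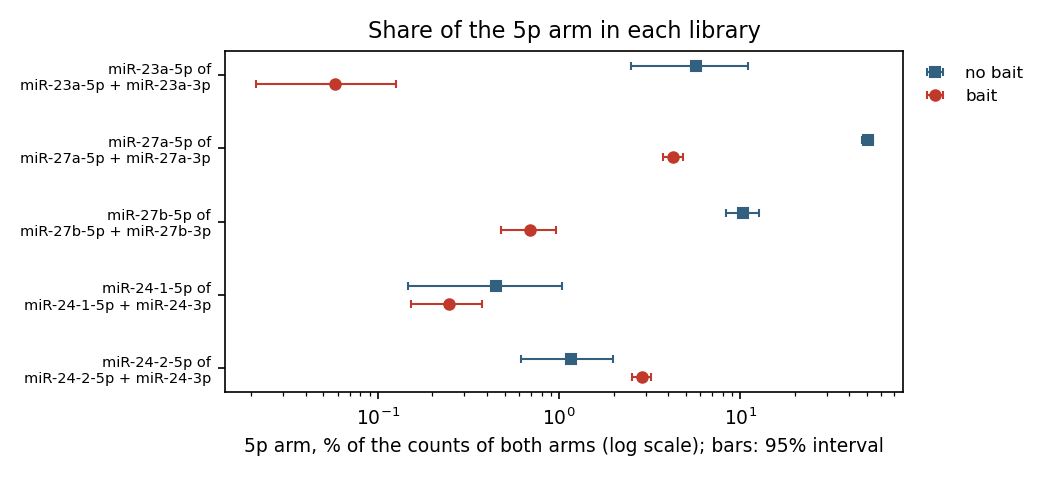
Share of the 5p arm among the counts of both arms of a hairpin, in percent (log axis), without bait (blue squares) and with bait (red circles), with 95% intervals. It was lower with bait for miR-23a, miR-27a and miR-27b, higher for miR-24-2, and overlapped for miR-24-1; miR-24-3p is shared by both miR-24 hairpins.

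Base composition moved with the ratio across the assessed miRNAs. A sequence was found for 203 of the 231, and Spearman's rho between GC content and log2 ratio was -0.305 (Pearson's r -0.307) over these 203 miRNAs, which share the same 2 libraries. The 72 miRNAs under 45% GC had a median ratio of 2.35, the 81 from 45% to 55% one of 1.43, and the 50 over 55% one of 0.751. The assessed members lay in the middle range, from 45.5% for miR-27b-5p to 54.5% for miR-24-3p and miR-27a-5p. miR-24-3p and miR-27a-5p thus have the same GC content, with ratios of 1.98 and 0.132. Of the 69 other assessed miRNAs within 5 points of GC of miR-23a-3p (47.6%), 1 had a ratio as high, and their median was 1.44. Of the 87 within 5 points of miR-27b-5p, 2 had a ratio as low. Whether GC content plays a part in these ratios was not tested further.

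**Figure D5:**
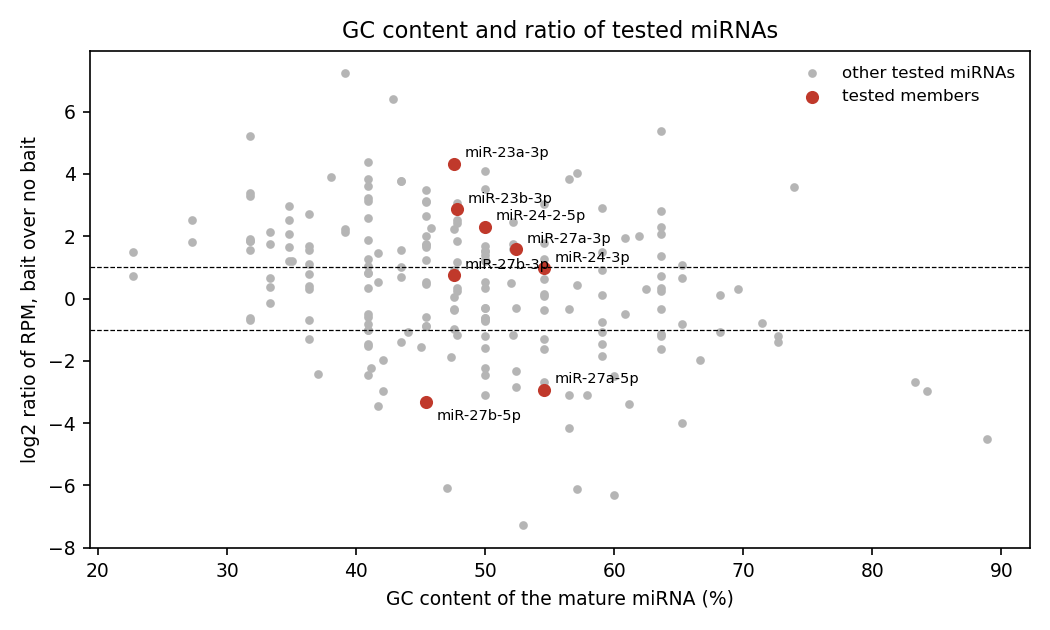
GC content of each assessed miRNA in percent against its log2 ratio of bait over no-bait RPM; red points are the 8 assessed members, grey points the others, and dashed lines the 2-fold bounds. The members span 45.5% to 54.5% GC, and their log2 ratios run from 4.33 for miR-23a-3p to -3.31 for miR-27b-5p.

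Seed matches were sought in the annotated MACC1-AS1 transcript of 639 bases (ENST00000439285.1), on its own strand. The sites for bases 2 to 8 were AATGTGA for the miR-23 guides, ACTGTGA for the miR-27 guides, CTGAGCC for miR-24-3p, AGTAGGC for the miR-24 passengers, GGAACCC for miR-23a-5p, TAAGCCC for miR-27a-5p and TAAGCTC for miR-27b-5p. None of the 7 occurs in this transcript. Of 1854 distinct seeds of listed human miRNAs, 3.99% have such a match there. For the shorter match to bases 2 to 7, only miR-23a-5p had a site, GAACCC at positions 93 to 98, against 14.0% of 1399 distinct seeds. Sources used here do not give the isoform used as bait, and its MS2 hairpins were not searched, so this says only that these letters are not in this annotated transcript.

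In the authors' deposited table, 6 of the 10 members had a p-value under 0.05, 4 with a positive and 2 with a negative log2 fold change. They are the 6 members called here. The share of all 2588 names under 0.05 in that table is not given here, so 6 of 10 cannot be set against a general share. The authors' deposited table gives p-values of 3.44e-09 for miR-23a-3p, 2.26e-05 for miR-23b-3p, 8.86e-05 for miR-27a-5p and 4.05e-05 for miR-27b-5p, from a test that is not named and compares 1 library with 1. In the authors' deposited table miR-24-3p has 0.0864, miR-27b-3p 0.174 and miR-23a-5p 0.0835. Its values rest on the same counts and are no independent check.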

How the data were processed

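Per the labels, each library was a maltose eluate whose purified RNA went into an Illumina miRNA library. The authors deposited whole-number counts for each mature miRNA name and a normalized value, RPM, which equalled the count scaled by the library total within 0.00994 RPM. Per the submitters' processing notes, BWA was used (no version). Sources used here do not give the reference, the trimming or the treatment of reads matching several miRNAs. The authors' deposited comparison table gives a log2 fold change and a p-value per miRNA, and its other 4 value columns were not used.

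Ratios, exact conditional binomial intervals and conditional odds ratios were computed with SciPy 1.17.1 and tested on simulated data. A ratio of ratios, such as 5p over 3p with bait over the same without bait, needs no scaling between libraries. Where 1 library had 0 counts, medians used a floor of 3 counts there (8 of the 231 assessed miRNAs). Alternatives were edgeR 4.0.16 TMM factors, DESeq2 1.42.0 size factors, totals without the 5 most abundant miRNAs, minimums of 10 and 100 counts, no count filter, the deposited RPM, an interval wholly beyond 2-fold, counts summed by seed, and 0.5 added to each count. Paralogs summed before the arm ratio, the passenger and within-cluster pairs and the GC comparison were chosen after values were seen. All 10 members are described. Other names are miRNAs with a member's seed, those of the same loci, and the 3 nearest in log2 ratio to each of miR-23a-3p, miR-27a-3p and miR-24-3p. Members and lists were chosen with earlier results of these data known.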

Additional observations from a re-analysis of the deposited data

How the results depend on the processing

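No paired analysis was possible because each group has 1 library, and for the same reason no library could be left out. The 4 higher calls ranged from 4 to 6 over the scalings and filters, and the 2 lower calls from 2 to 3. The 6 came with DESeq2 size factors, where 49.4% of the 231 assessed miRNAs were called higher. A minimum of 10 counts or no filter added miR-23a-5p to the lower calls, where 24.9% of 325 and 14.4% of 715 names were called lower. Summed by seed, 3 of 7 entries were higher and 3 lower, against 40.0% and 28.7% of all 195 assessed entries. The log2 ratio of the summed miR-23 guides, 3.82, was 4.24 with DESeq2 size factors. That of the summed miR-27 guides, 1.12, became 1.54 under DESeq2 size factors, 1.28 under TMM and 0.99, just under 2-fold, once the 5 most abundant miRNAs were left out of the totals. These moves follow from the changed scaling factor. The log2 gap of miR-27a-5p to miR-27a-3p, -4.51, was -4.10 with the miR-27 paralogs summed. The value of -0.87 for miR-24-1-5p against miR-24-3p turned to 0.97 with both miR-24 passengers summed, where miR-24-2-5p supplies most counts. The other 34 alternative values of the main results stayed within their counting interval or within 1.5 times the count. For single members, 11 of 40 values under another scaling or the deposited RPM left the counting interval. The deposited RPM is the same scaling as the main one, so its values could not move. Each other scaling shifts all log2 ratios by a constant, at most 0.42. The called member nearest to no change, miR-27a-3p, has a log2 ratio of 1.59. No called member could therefore change direction, and that none did is no check. The log2 ratio of miR-24-1-5p, 0.11, was -0.02 without the 5 most abundant. The no-bait depth limits miR-23a-5p, miR-24-1-5p and miR-24-2-5p, with 8, 5 and 13 counts there.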
